A study of Mus musculus with 3 samples.

Results

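Isolated CTCF peaks were the autosomal peaks of 1 ChIP-seq library whose edges lay more than 250 kb from the nearest neighboring peak on both sides. They were selected on peak positions alone, and 532 of the 18697 autosomal peaks met the rule (2.85%), out of 18945 peaks in the whole list. The peaks came from LSK cells, a bone marrow population sorted as lacking the lineage markers CD4, CD8, IL7Ra, CD11b, Ly6g, CD45R and Ter119 and carrying Sca1 and cKit, from adult male C57BL6 mice. No engineered allele and no treatment is named for them. This population mixes hematopoietic stem cells with multipotent progenitors, so a peak is an average over both. CTCF-bound DNA was recovered with a Millipore antiserum (07-729). The LSK and MEP input libraries were not analyzed here. With 1 library there is no replicate error: shares are given with 95% Wilson intervals, differences between shares in percentage points with 95% Newcombe intervals, and medians with 95% order-statistic intervals. All of these cover counting error only, treat peaks as independent, and carry no p-value. The depth of the library is not recorded in the peak list.

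CTCF is a zinc finger protein that binds a long, asymmetric DNA sequence and, together with cohesin, forms the ends of chromatin loops and the borders of topological domains. Cohesin extrudes loops and is held up preferentially where CTCF sites on either side point toward each other, so the strand of a site matters as well as its position. Gene-poor DNA of low GC content often surrounds long genes of the nervous system and tandem arrays of receptor genes.

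The binding sequences are shown first, since the bases at the variable positions of the core are compared further on. Each window holds the 12 bases that match the core CTCF motif in capitals, with 24 bases of reference sequence (mm10) on each side in lower case, read 5′ to 3′ along the strand of the motif and named by the nearest protein-coding gene. The first 8 belong to the 10 isolated peaks with the highest fold enrichment. The other 2 of these 10 held no match with up to 1 mismatch. The windows near Samd12, Lmbrd2 and Olfr275 match the core in full, and the other 5 differ from it at 1 base.
Samd12, chr15:54070141-54070200, + strand: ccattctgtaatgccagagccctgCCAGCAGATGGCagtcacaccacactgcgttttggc
Lrrtm3, chr10:64084561-64084620, + strand: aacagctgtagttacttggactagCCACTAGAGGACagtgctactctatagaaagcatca
Atp10a, chr7:58584399-58584458, + strand: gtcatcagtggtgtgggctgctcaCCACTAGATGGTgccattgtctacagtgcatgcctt
Lrrc3b, chr14:15355654-15355713, + strand: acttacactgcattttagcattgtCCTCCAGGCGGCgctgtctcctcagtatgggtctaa
Lmbrd2, chr15:9120183-9120242, + strand: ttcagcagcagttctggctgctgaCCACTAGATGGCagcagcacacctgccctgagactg
Lgr4, chr2:109904302-109904361, + strand: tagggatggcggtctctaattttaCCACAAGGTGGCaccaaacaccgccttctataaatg
Lhcgr, chr17:88954189-88954248, + strand: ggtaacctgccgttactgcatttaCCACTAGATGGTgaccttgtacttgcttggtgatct
Olfr275, chr4:52726807-52726866, - strand: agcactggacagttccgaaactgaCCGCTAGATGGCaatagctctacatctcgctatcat

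Of the 10 isolated peaks with the longest shorter gap, 5 held the core in full, and only the windows of these 5 are shown. Members of the 10 with a match at 1 mismatch, such as the peak near Gm10800 (shorter gap 2235 kb), are left out.
Cdh18, chr15:21885361-21885420, + strand: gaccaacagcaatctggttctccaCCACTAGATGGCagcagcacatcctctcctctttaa
Chordc1, chr9:18230124-18230183, - strand: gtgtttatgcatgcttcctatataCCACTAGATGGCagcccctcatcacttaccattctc
Tecrl, chr5:83440408-83440467, - strand: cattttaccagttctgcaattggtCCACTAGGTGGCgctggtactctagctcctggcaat
Tenm3, chr8:50292309-50292368, + strand: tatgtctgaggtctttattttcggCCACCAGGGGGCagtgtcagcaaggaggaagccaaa
Olfr1177-ps, chr2:88356452-88356511, + strand: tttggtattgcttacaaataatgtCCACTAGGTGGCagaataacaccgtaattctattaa

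The last windows belong to isolated peaks near genes of the receptor, adhesion and developmental lists described further on.
Slitrk5, chr14:111674828-111674887, - strand: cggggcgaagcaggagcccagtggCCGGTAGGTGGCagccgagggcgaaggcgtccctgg
Epha7, chr4:28808959-28809018, - strand: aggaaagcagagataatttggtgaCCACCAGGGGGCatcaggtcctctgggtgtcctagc
Gabra5, chr7:57538701-57538760, - strand: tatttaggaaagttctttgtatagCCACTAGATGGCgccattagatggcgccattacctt
Nr2f1, chr13:78201716-78201775, - strand: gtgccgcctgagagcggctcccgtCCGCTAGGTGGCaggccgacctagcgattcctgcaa
Olfr427, chr1:174103911-174103970, - strand: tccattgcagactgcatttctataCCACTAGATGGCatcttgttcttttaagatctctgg

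The isolated peaks sat in very long peak-free stretches. Their shorter gap had a median of 379 kb and reached 2411 kb, and their longer gap had a median of 844 kb and reached 7972 kb. The median gap between all neighboring autosomal peaks was 42.8 kb. The 913 gaps that flanked isolated peaks added up to 771 Mb, or 32.2% of the known bases of the autosomes. Isolated peaks often followed each other, with 151 pairs in which both neighbors were isolated. The longest run held 5 isolated peaks over 5.57 Mb on Chromosome 12 (chr12:92302996-97872908). The rule fixes the lower limit of the gaps, so these values describe the members and were not tested.

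Signal at the isolated peaks had a lower median and a lower maximum than at the remaining peaks. The authors' fold enrichment, a linear ratio of ChIP signal over background, ran from 3.17 to 27.74 with a median of 8.81 (8.48 to 9.14). The 18165 remaining autosomal peaks had a median of 10.1 and a maximum of 42.4. The median −log10 p-value was 10.2 for the isolated peaks and 12.8 for the remaining peaks, and the median width was 688 bp against 716 bp. The −log10 p-value was below 6 at 14.7% of the isolated peaks and at 9.43% of the remaining peaks. A fold of at least 16.97, the 90th percentile of autosomal peaks, was met by 37 of the 532 isolated peaks (6.95%). Peaks with 1 gap over 250 kb (n = 2993) had a median fold of 9.79, and peaks with a neighbor within 10 kb (n = 6746) had a median fold of 10.8. The isolated peaks had the lowest median of these sets and the crowded peaks the highest. Fold, p-value and width come from the list that chose the members, so these differences are described without a test.

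**Figure D1:**
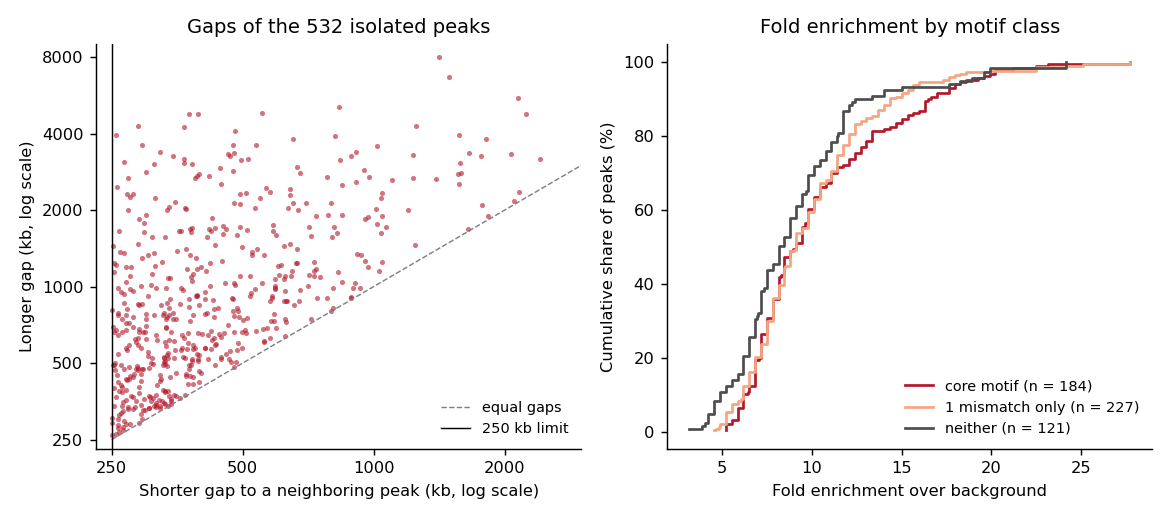
Left, the shorter gap (x axis) against the longer gap (y axis) of each of the 532 isolated peaks, in kb on log scales, with the 250 kb limit as a vertical line. Right, the cumulative share of isolated peaks (y axis, %) against fold enrichment (x axis) for the 184 peaks with the core motif, the 227 with a match at 1 mismatch only and the 121 with neither, whose median folds were 9.14, 9.14 and 8.16.

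At the 250 kb limit, the share of isolated peaks with the core CTCF motif was not distinguishable from that of other peaks. The core was present at 184 of 532 isolated peaks, 34.6% (30.7% to 38.7%), and at 6483 of 18165 remaining peaks, 35.7%. The difference was −1.10 points (−5.08 to 3.09), an interval that includes 0. This depended on the setting: with a limit of 200 kb the difference was −3.47 points (−6.77 to −0.00107), and with only the peaks at or above the median −log10 p-value as members and neighbors it was −5.06 points (−8.51 to −1.49). Windows of the same width shifted by 10 kb held the core at 0.188% (left) and 0.376% (right) of isolated peaks, which is 1 and 2 windows. The same windows of the remaining peaks, which unlike those of isolated peaks can hold a neighboring peak, held it at 1.33% and 1.40%. The core lay near the middle of the isolated peaks, at a median of 29 bp from the midpoint (23 to 33, n = 184), against 28 bp at the remaining peaks with 1 core. It was within 100 bp of the midpoint in 94.6% of isolated peaks with a core.

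Matches with up to 1 mismatch were less frequent at the isolated peaks as a whole. With up to 1 mismatch, 77.3% of isolated peaks (73.5% to 80.6%) and 83.8% of the remaining peaks held a match, a difference of −6.57 points (−10.4 to −3.17). The difference from peaks with 1 gap over 250 kb was −4.87 points (−8.85 to −1.22). The shifted windows held such a match at 10.5% and 9.02% of isolated peaks and at 17.7% and 17.8% of the remaining peaks, so the background was also lower around isolated peaks. Peaks were also split by fold enrichment at the quartiles of all autosomal peaks. The difference in the share of isolated and remaining peaks with a match was −8.36 points (−15.6 to −2.00) in the lowest class and −3.01 (−10.2 to 2.74) in the second. It was −7.54 (−15.9 to −1.004) in the third class and −1.20 (−10.2 to 4.73) in the highest. It was −7.97 points (−13.4 to −3.20) at peaks with a GC content below 42% and −3.89 (−9.46 to 0.726) at 42% or more. No isolated peak held 2 or more cores (0 of 532; 3 peaks, the most that a count of 0 allows, would be 0.564%, and the Wilson upper limit is 0.717%), whereas 155 of the remaining peaks did (0.853%). The difference of −0.853 points had an interval of −0.998 to −0.126. Among peaks with 1 gap over 250 kb, 17 of 2993 held 2 or more cores (0.568%). The difference from these was −0.568 points (−0.908 to 0.180), an interval that includes 0.

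The share with the core did not differ steadily across levels of signal. Autosomal peaks were split at the quartiles of fold enrichment (7.83, 10.12 and 13.38) into 4 classes. In the lowest class, 32.0% of 178 isolated peaks and 26.6% of remaining peaks held the core (difference 5.41 points, −1.15 to 12.7). In the second class the shares were 35.5% of 152 and 32.2% (3.35 points, −3.94 to 11.3). In the third class they were 29.1% of 117 and 39.1% (−10.1 points, −17.7 to −1.18). In the highest class they were 45.9% of 85 and 43.3% (2.62 points, −7.66 to 13.3). The interval excluded 0 in 1 of these 4 classes. Among peaks with a GC content below 42%, 36.6% of 295 isolated peaks and 30.9% of remaining peaks held the core, a difference of 5.72 points (0.217 to 11.6). At a GC content of 42% or more, the difference was −4.82 points (−10.5 to 1.42). Within introns and exons of protein-coding genes the shares were 33.1% and 35.7%, and between genes they were 36.2% and 35.8%.

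The bases inside the core differed at 3 of its variable positions. The core has 5 positions that may vary, counted from 1 at its 5′ end: positions 3, 4, 5, 8 and 9. Counts of cores leave out 1 chromosome for which sequence is not reported here, which left 174 isolated peaks and 6297 remaining peaks with a core. Thymine at position 5 was found in 58.0% of the cores of isolated peaks (50.6% to 65.1%) and in 40.7% of those of the remaining peaks, a difference of 17.4 points (9.86 to 24.6). Thymine at position 9 was found in 53.4% and 37.2% (16.3 points, 8.77 to 23.6). Adenine at position 8 was found in 52.9% and 43.8% (9.09 points, 1.59 to 16.5). The differences at the other positions had intervals that include 0. Adenine at position 3 was found in 83.3% and 77.4% (5.90 points, −0.427 to 10.8), and cytosine at position 4 in 65.5% and 58.2% (7.28 points, −0.145 to 14.1).

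Several of these positions also differed between cores in isolated peaks and cores outside any listed peak, here called unbound. Binding too weak to be listed as a peak was not tested. Within 250 kb of the isolated peaks the reference held 1061 further cores, none of them in a peak, as the rule requires. Thymine at position 5 was found in 41.1% of these unbound cores, 17.0 points below the isolated peaks (interval of the difference 8.95 to 24.6). Adenine at position 3 was found in 50.2% (difference 33.1 points, 26.2 to 38.8), and cytosine at position 4 in 43.0% (22.5 points, 14.6 to 29.8). The other side of the core ran differently. Adenine at position 8 was more frequent in the unbound cores (62.6%; difference −9.71 points, −17.6 to −1.86), and thymine at position 9 was found in 55.5% of them (difference −2.07 points, −10.0 to 5.79). At positions 3, 4 and 5 the isolated peaks thus stood apart from the unbound cores of their own regions, and at positions 8 and 9 they were lower than or near them.

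**Figure D2:**
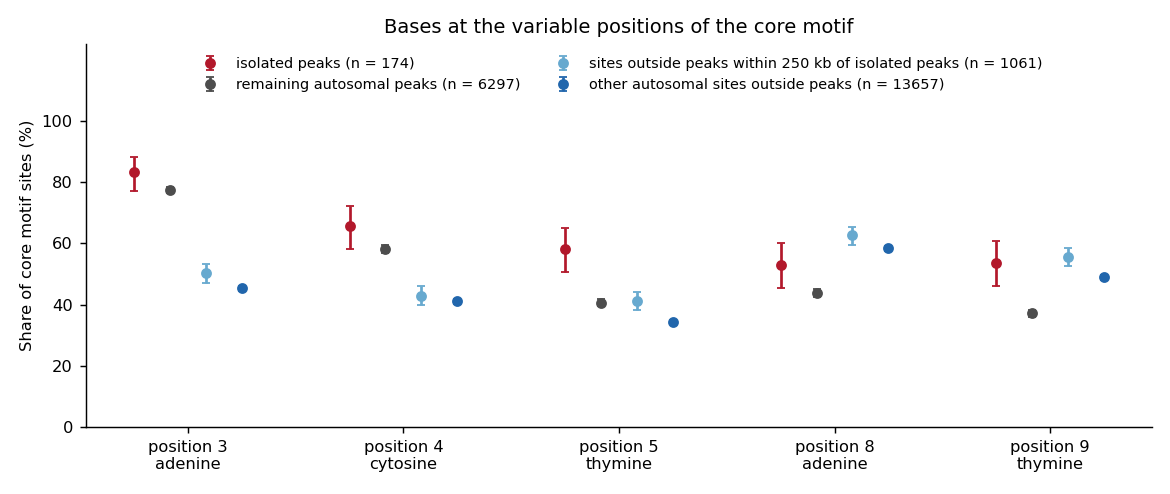
Share of core motif sites (y axis, %) with the named base at each of the 5 variable positions (x axis), with 95% Wilson intervals as bars, for cores in isolated peaks, in remaining autosomal peaks, outside peaks within 250 kb of isolated peaks and elsewhere outside peaks. At position 5, thymine was found in 58.0% of cores in isolated peaks and in 34.4% to 41.1% of the other 3 sets.

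The most frequent core of the isolated peaks was CCACTAGATGGC, which also stands in the windows near Lmbrd2, Cdh18, Chordc1, Gabra5 and Olfr427. It made up 26 of 174 cores (14.9%, 10.4% to 21.0%), against 318 of 6297 (5.05%) at the remaining peaks and 26 of 1061 (2.45%) at the unbound sites of the same regions. The difference from the remaining peaks was 9.89 points (5.32 to 16.0). CCACTAGGTGGC followed with 17 cores (9.77%, against 6.10% at the remaining peaks; difference 3.67 points, 0.0386 to 9.02) and CCACTAGAGGGC with 16 (9.20% against 6.80%; difference 2.40 points, −1.12 to 7.65). The core most frequent at the remaining peaks, CCAGCAGAGGGC, made up 9.26% there and 6.32% at the isolated peaks (difference −2.94 points, −5.79 to 1.76). In the regions around isolated peaks, 26 of 52 copies of CCACTAGATGGC lay in the isolated peak (interval 36.9% to 63.1%), whereas 11 of 96 copies of CCAGCAGAGGGC did (11.5%, 6.52% to 19.4%). Across the same autosomes, 57.2% of 608 copies of the first and 32.4% of 1867 copies of the second lay in a peak of any kind. The leading core was chosen for its frequency in these peaks, so its counts are a description.

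Base composition of the surrounding DNA moved with the composition of the core. In regions with a GC content below 40% (within 250 kb to either side), CCACTAGATGGC made up 15.9% of 107 cores of isolated peaks and 14.2% of 318 cores of remaining peaks, a difference of 1.74 points (−5.40 to 10.5). Thymine at position 5 was found in 57.9% and 53.5% there (4.48 points, −6.42 to 15.0), and thymine at position 9 in 55.1% and in 159 of the 318 cores (5.14 points, −5.77 to 15.7). Adenine at position 8 turned to below the remaining peaks in these regions, at 51.4% against 60.1% (−8.66 points, −19.4 to 2.09). In regions of 40% to 45% GC, CCACTAGATGGC made up 14.8% of 61 cores and 6.09% of 2562 (8.67 points, 1.80 to 19.7), and thymine at position 5 was found in 59.0% and 44.7% (14.3 points, 1.62 to 25.9). Adenine at position 8 differed there by 12.5 points (−0.175 to 24.1) and thymine at position 9 by 11.4 points (−1.09 to 23.5). Both intervals include 0. In regions of 45% GC or more there were only 6 cores of isolated peaks. The 48 bases that flank the core had a median GC content of 45.8% at isolated peaks (43.8% to 47.9%) and 52.1% at the remaining peaks.

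The regions around isolated peaks were poor in GC and in potential binding sites. The median GC content within 250 kb was 39.7% (39.4% to 39.9%) around isolated peaks, 42.3% around peaks with 1 gap over 250 kb, 45.1% around all remaining peaks and 46.1% around peaks with a neighbor within 10 kb. The peaks themselves had a median GC content of 41.3%, against 47.2% for the remaining peaks. Soft-masked bases, which mark repeats in the reference, made up a median of 34.8% of the surroundings (33.6% to 36.2%), against 28.5% for the remaining peaks. Core sites numbered 4.21 per Mb within 250 kb of isolated peaks (3.96 to 4.46, Poisson interval; surroundings of isolated peaks can overlap), 15.9 per Mb around the remaining peaks and 9.21 per Mb over all autosomes. With only the peaks at or above the median −log10 p-value, they numbered 6.76 per Mb around the peaks that were then isolated. Since the rule keeps peaks out of the surroundings of isolated peaks, the like comparison is with cores outside peaks, which numbered 9.87 per Mb around the remaining peaks and 6.69 per Mb around peaks with 1 gap over 250 kb. The median isolated peak had 2 such unbound cores within 250 kb, against 4 for the remaining peaks. At 102 isolated peaks there was none (19.2%, 16.1% to 22.7%), and 43 of these peaks held a core themselves, the only core over more than 500 kb. At 289 isolated peaks the reverse was found: the peak held no core while at least 1 unbound core lay within 250 kb.

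**Figure D3:**
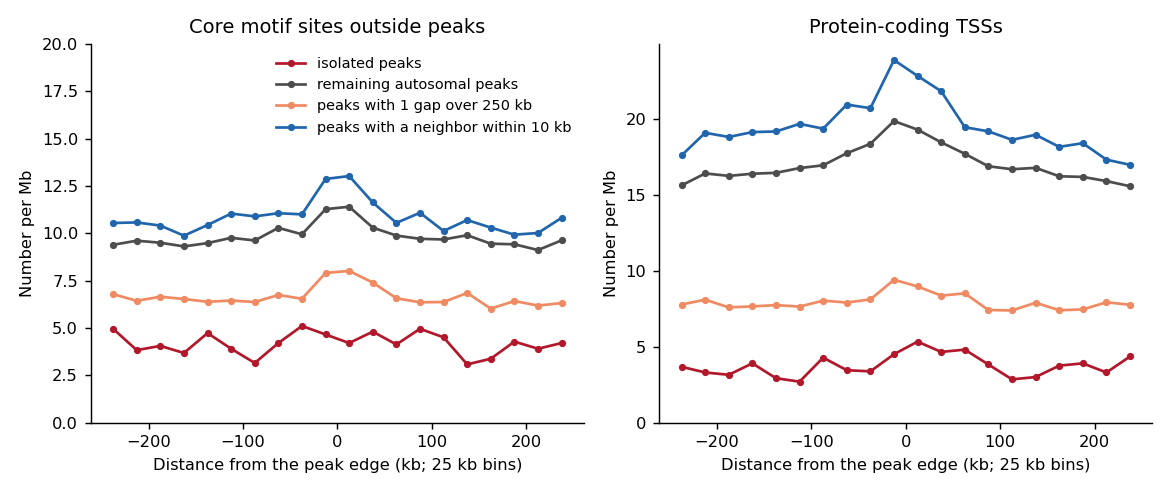
Number per Mb (y axes) of core motif sites outside peaks (left) and of protein-coding transcription start sites (right) in bins of 25 kb by distance from the peak edge (x axes), as means over the peaks of each group. Around isolated peaks the cores ran between 3.08 and 5.11 per Mb and the start sites between 2.71 and 5.34 per Mb in all 20 bins, below the lowest bins of the remaining peaks at 9.12 and 15.6 per Mb.

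Isolated peaks were not mostly repeats, but the few that lay almost wholly in repeats were more frequent among them. Soft-masking of over 50% was found in 29 of 532 isolated peaks (5.45%, 3.82% to 7.72%) and in 6.04% of the remaining peaks, a difference of −0.593 points (−2.26 to 1.70). Soft-masking of over 80% was found in 10 isolated peaks (1.88%, 1.02% to 3.43%) and in 97 remaining peaks (0.534%), a difference of 1.35 points (0.482 to 2.89). These 10 peaks had fold enrichments of 3.92 to 8.48 and −log10 p-values of 5.01 to 6.77, near the lowest value in the list. None of them held the core and 2 held a match with 1 mismatch. They included the peaks near Vmn2r69 (a vomeronasal receptor gene), Zscan4-ps1 and G6pd2, and 1 in an intron of Lsamp. Reads that map to several places were kept by the authors, and the part of this in these peaks was not tested. Cores that matched in full were mostly outside repeats, and sites with 1 mismatch were not counted for this. Soft-masked sequence held 6 of 184 cores in isolated peaks (3.26%, 1.50% to 6.93%) and 7.31% of those in remaining peaks (difference −4.05 points, −5.93 to −0.331). It held 17.0% of the unbound cores within 250 kb (difference −13.8 points, −16.7 to −9.55).

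Genes were sparse around the isolated peaks. The median distance to the nearest transcription start site (TSS) of a protein-coding gene was 124 kb (94.5 to 156), against 48.2 kb for peaks with 1 gap over 250 kb, 19.2 kb for the remaining peaks and 15.3 kb for peaks with a neighbor within 10 kb. With only the peaks at or above the median −log10 p-value as members and neighbors, the median of the isolated peaks was 52.0 kb. No protein-coding TSS lay within 250 kb of 191 isolated peaks (35.9%, 31.9% to 40.1%), against 3.39% of the remaining peaks, a difference of 32.5 points (28.5 to 36.7). Peaks with 1 gap over 250 kb stood at 9.96%. The rule keeps other peaks out of these surroundings, and with them any TSS that carries another peak. How much of the difference follows from the rule was not tested. Beyond 500 kb the shares were 13.7% and 0.837%. Isolated peaks were less often within 1 kb of a TSS of any gene record, at 8.46% (6.38% to 11.1%) against 14.4% (difference −5.91 points, −8.05 to −3.19). The difference from peaks with 1 gap over 250 kb was −1.93 points (−4.30 to 0.937). By the midpoint of the peak, 57.7% of isolated peaks (53.5% to 61.8%) lay between genes, against 45.1% of the remaining peaks (difference 12.6 points, 8.26 to 16.8). Introns held 38.3% and 44.3%, and exons held 3.95% and 10.6%.

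**Figure D4:**
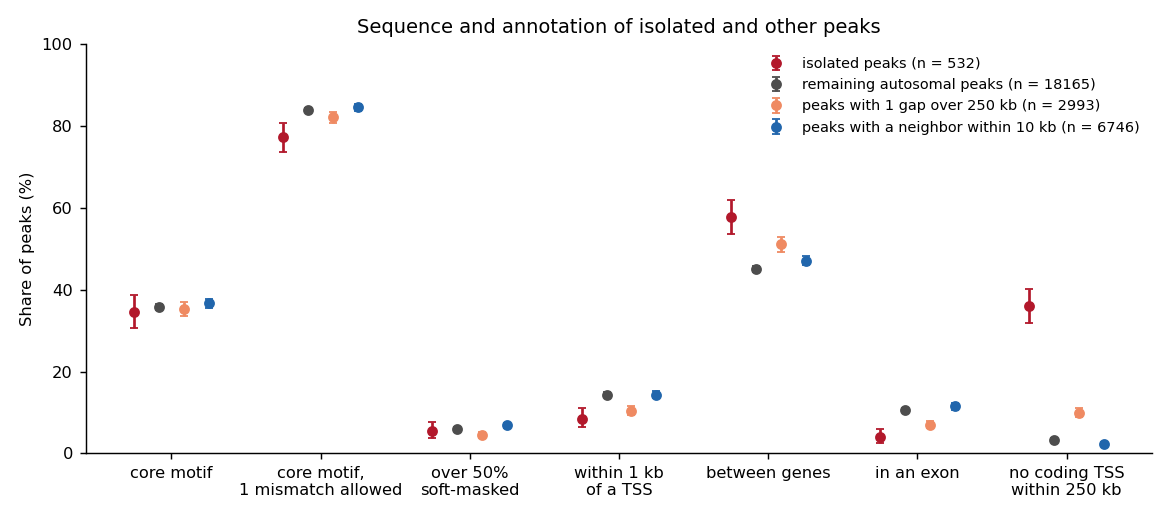
Share of peaks (y axis, %) with each sequence or annotation feature (x axis), with 95% Wilson intervals as bars, for the 532 isolated peaks and 3 sets of other autosomal peaks. The core motif was found at 34.6% to 36.6% of the peaks in all 4 sets, while 35.9% of isolated peaks and 2.39% to 9.96% of the other sets had no protein-coding start site within 250 kb.

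Within the isolated peaks the length of the gap followed the surroundings. The 299 peaks with a shorter gap of up to 400 kb had a median regional GC content of 40.5%, the 152 with a gap of 400 to 700 kb 38.8%, and the 81 with a gap above 700 kb 38.0%. The share without a protein-coding TSS within 250 kb was 30.8%, 40.8% and 45.7% in this order. The core was present at 33.8% (28.7% to 39.3%), 32.9% (25.9% to 40.7%) and 40.7% (30.7% to 51.6%), with intervals that overlap. The median fold was 8.94, 8.91 and 8.48. Gap length belongs to the rule, so these classes are described only.

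Protein-coding promoters carried few isolated peaks. Of the 532, 21 lay within 1 kb of a protein-coding TSS (3.95%, 2.60% to 5.96%), against 9.55% of the remaining peaks (difference −5.60 points, −7.02 to −3.54). Peaks with 1 gap over 250 kb stood at 5.75%, and the difference from them had an interval that includes 0 (−1.80 points, −3.42 to 0.358). The fold enrichments of the 21 isolated peaks ran from 4.89 to 17.62, 6 of the 21 held the core, and their GC content ran from 38.0% to 73.1%. The strongest was 429 bp from the TSS of Lrrn3, a leucine-rich repeat neuronal gene that lies within the much larger Immp2l (chr12:41486860-41487662, fold 17.62, with the core). Tent5a, a poly(A) polymerase gene, had a peak of fold 16.97 at 804 bp, and Epha4, an ephrin receptor of axon guidance, also had a peak of fold 16.97, at 985 bp; both held the core. The peak at Edn1, which encodes the vasoconstrictor endothelin 1, had a fold of 15.34 and no full core. Peaks also lay at Jag1, a Notch ligand (fold 7.83), at Osr1 and at Trib2, where the peak overlapped the TSS (fold 11.09). The genes of this paragraph were chosen after their values were seen.

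Isolated peaks inside genes lay in longer genes than other peaks inside genes. Protein-coding genes held 175 isolated peaks in 165 distinct genes, 53 of which were longer than 500 kb. The longest host gene of each such peak had a median length of 337 kb (256 to 410), against 66.6 kb for the 8755 remaining peaks in protein-coding genes. For the 1216 peaks in protein-coding genes with 1 gap over 250 kb, the median was 164 kb (150 to 186). Anks1b, an ankyrin repeat gene with a neuronal scaffold protein as product, was the only host of 3 isolated peaks. All 3 held the core: chr10:90081516-90082041 (fold 8.48, plus strand), chr10:90373430-90373948 (fold 7.50, minus strand) and chr10:90689941-90690675 (fold 8.48, minus strand). The first pair of these cores faced each other across 291 kb of Anks1b. A further 10 genes held 2 isolated peaks each. They were, chosen after their values were seen, Cacna2d3, Immp2l, Inpp4b, Lrmda, Lsamp, Macrod2, Negr1, Nlgn1, Ppfia2 and Ptprd, all between 466 and 2271 kb long. By the rule, isolated peaks of the same gene lie more than 250 kb apart. Only long genes can therefore hold 2 or more, and the length of these hosts is no separate result. Negr1 and Lsamp encode neural cell adhesion proteins of the same family, Nlgn1 a postsynaptic adhesion protein, and Ptprd a receptor phosphatase at synapses.

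Gene lists were counted by the genes whose nearest CTCF peak was isolated and lay within 250 kb of the TSS. Over all autosomal protein-coding genes this held for 846 of 20807 (4.07%), around 322 isolated peaks. The lists were chosen with earlier results of these data known, and genes of a list can share a peak, so the counts are set beside this background and nothing is tested. Of the genes of blood cells, 2 of 91 counted (2.20%). These were Meis1, a homeobox factor of hematopoietic stem cells, 5323 bp from a peak of fold 9.79 (chr11:19024308-19024799) with a gap of 736 kb, and Il7r, the interleukin 7 receptor chain of lymphoid progenitors, 74337 bp from a peak of fold 11.75. The Meis1 peak held a match with 1 mismatch and the Il7r peak held none. None of the 18 erythroid, 15 megakaryocyte and 18 granulocyte and monocyte genes counted, nor did any of 68 cytoplasmic ribosomal protein genes, whose median TSS was 5.50 kb from a peak. The upper limits of these shares were 17.6%, 20.4%, 17.6% and 5.35% in this order, all above the 4.07% of all genes.

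Genes of neuronal adhesion and synapses had isolated peaks as their nearest peak most often among the 14 lists. The rule was met by 14 of 55 (25.5%, 15.8% to 38.3%), each with a peak of its own, and the median TSS of the list was 227 kb from a peak, against 22.8 kb over all genes. Slitrk5, a leucine-rich repeat transmembrane protein of neurons, had an isolated peak over its TSS (chr14:111674441-111675225, fold 9.46, gap 911 kb). Slit3, a secreted guidance cue, had a peak 1502 bp from its TSS (fold 7.83), and Epha7, an ephrin receptor, had a peak at 3911 bp (fold 6.20). Each of these 3 peaks held the core. Lrrtm3, a synaptic organizer, lay 5232 bp from a peak of fold 27.74, which shares the highest fold of all isolated peaks. Among cadherins 2 of 23 counted, Cdh13 at 8456 bp and Cdh20 at 217556 bp, and among non-clustered protocadherins 1 of 10, Pcdh7 at 1388 bp (fold 9.14, gap 1017 kb). The 3 of 32 glutamate and GABA receptor genes that counted shared a single peak, 28329 bp from the TSS of Gabra5, with a core whose window is shown above.

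Of the developmental transcription factors, 7 of 57 counted (12.3%, 6.08% to 23.2%), all within 50 kb of their peak. Sox9, a factor of cartilage and gonad development, lay 1847 bp from a peak of fold 8.81. Nr2f1, an orphan nuclear receptor of cortical patterning, lay 1857 bp from a peak of fold 10.44 with a gap of 1232 kb. Tshz3, a zinc finger homeobox factor, lay 7120 bp from a peak of fold 11.09. The Nr2f1 peak held the core, and those of Sox9 and Tshz3 a match with 1 mismatch.

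Receptor gene arrays shared few isolated peaks among many genes. Olfactory receptor genes counted at 100 of 1128 (8.87%, 7.34% to 10.7%), around only 9 peaks. Vomeronasal receptor genes counted at 45 of 327 (13.8%, 10.4% to 17.9%), around 11 peaks. Their median TSSs lay 176 kb and 274 kb from a peak. Within 50 kb the olfactory and vomeronasal shares were 2.04% and 1.83%, against 1.19% over all genes. Olfr735 was closest at 3450 bp (fold 9.14), followed by Olfr957 at 6339 bp (fold 5.22) and Olfr427 at 6753 bp (fold 7.83), and the peak near Olfr1066 was the strongest of these 4 with a fold of 15.99. Vmn2r7 lay 1917 bp from a peak of fold 6.96 and Vmn1r21 lay 9270 bp from a peak of fold 8.48; neither peak held the core. Zinc finger protein genes counted at 22 of 358 (6.15%, 4.09% to 9.13%) around 12 peaks. Zfp708 and Zfp759 shared a peak with a fold of 9.46, a −log10 p-value of 21.6, a core and a gap of 1241 kb, which also overlapped the TSS of Gm28557.

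**Figure D5:**
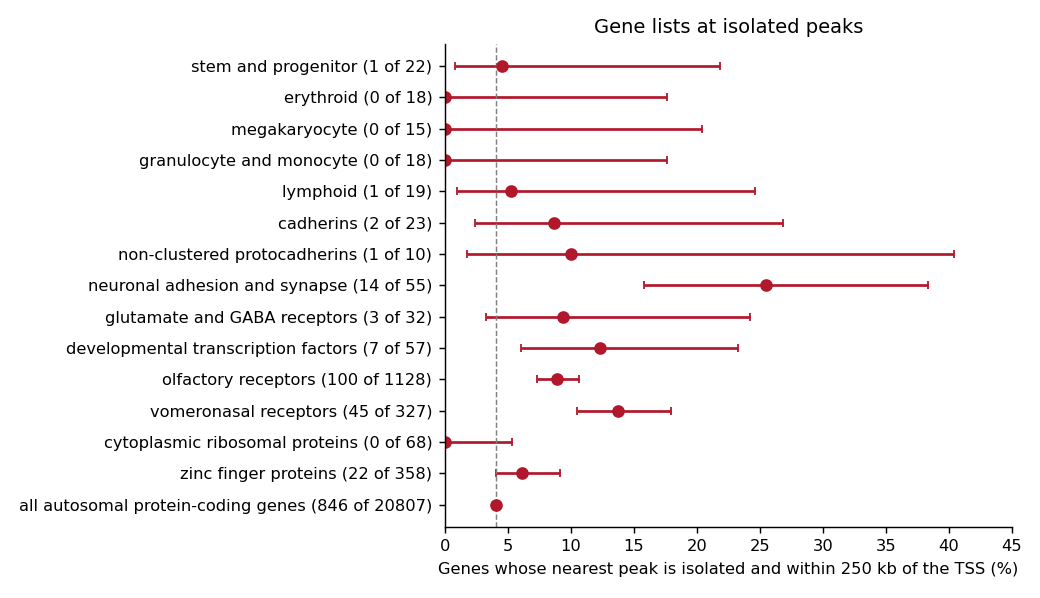
Share of the genes of each list (x axis, %) whose nearest CTCF peak was isolated and within 250 kb of the TSS, with 95% Wilson intervals as bars and the number of genes beside each name. The dashed line marks the 4.07% of all autosomal protein-coding genes. Neuronal adhesion and synapse genes stood at 25.5%. The erythroid, megakaryocyte, granulocyte and monocyte, and ribosomal protein lists stood at 0, with upper limits of 17.6%, 20.4%, 17.6% and 5.35%.

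The isolated peaks with the highest signal lay in different kinds of surroundings. The 2 with a fold of 27.74 were chr15:54069754-54070581, between genes and 167217 bp from Samd12 (−log10 p-value 62.1), and chr10:64084204-64085045 in an intron shared by Ctnna3, an alpha catenin gene, and Lrrtm3 (53.7). The next, chr7:58584210-58584738 (fold 25.12), lay 71428 bp from Atp10a, a phospholipid flippase gene, with gaps of 1045 and 1903 kb. A trio of peaks shared a fold of 24.15. They were chr17:72241927-72242670 in an intron of Alk, a receptor tyrosine kinase gene, chr16:64748101-64748886 at 22275 bp from 4930453N24Rik, and chr14:15355287-15356113 at 82874 bp from Lrrc3b. The first pair of these was without any match at up to 1 mismatch. The peak in an intron of Skp2, which encodes the substrate subunit of a ubiquitin ligase, had a fold of 23.17 (chr15:9119785-9120533; nearest TSS Lmbrd2). Peaks near Lgr4 (an R-spondin receptor), Lhcgr (the luteinizing hormone receptor) and Olfr275 each had a fold of 22.51. Strong signal was thus found with the core at 3 of these 10 peaks, with a match at 1 mismatch at 5 and without either at 2.

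The 10 peaks with the longest shorter gaps had folds of 4.24 to 16.31. The most isolated, chr15:21885105-21885760, lay 2411 kb and 3162 kb from its neighbors and 663262 bp from Cdh18, a cadherin gene, with a fold of 6.85. The next were chr2:99236774-99237488 near Gm10800 (shorter gap 2235 kb, fold 11.75), chr9:18229856-18230433 near Chordc1 (2154 kb, fold 7.18) and chr5:83440042-83440894 near Tecrl (2146 kb, fold 16.31). Those near Vstm2b, Tenm3 (a teneurin of neuronal wiring), Olfr1177-ps and Slc10a2 (the intestinal bile acid transporter) had folds of 8.16, 6.85, 7.18 and 12.07. The remaining members of the 10, near Zscan4-ps1 and G6pd2, were the repeat-rich peaks already described, with folds of 4.24 and 4.57. The Tecrl peak alone was above the upper quartile of the fold over autosomal peaks, 13.38.

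The 250 kb limit divided a continuous range. The members just inside it had shorter gaps of 250.1 to 251.3 kb and folds of 6.53 to 9.79. They lay in St6galnac3 (nearest TSS St6galnac5) and Ninl, and near Ttll7, Olfm4 and Adam10, and none held the core. The peaks just outside had shorter gaps of 249.1 to 249.9 kb and folds of 5.55 to 11.09. They lay in Spag17, Rad51b and Ttc6 and near Htr2a and Ttc6, and 1 of the 5 held the core. On both sides of the limit, folds and gaps overlapped or adjoined.

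Motif pairs that involved an isolated peak pointed away from each other less often than the remaining pairs of neighbors. There were 118 pairs of neighboring peaks with exactly 1 core each in which at least 1 peak was isolated. The cores faced each other in 35 (29.7%, 22.2% to 38.4%), lay on the same strand in 64 (54.2%, 45.3% to 63.0%) and pointed away in 19 (16.1%, 10.6% to 23.8%). Among 2222 remaining pairs the shares were 25.5%, 48.0% and 26.5%. The difference in pairs pointing away was −10.4 points (−16.3 to −2.52), and that in facing pairs was 4.14 points (−3.58 to 13.1). Against the 504 remaining pairs within 10 kb, of which 15.1% faced each other and 31.5% pointed away, the differences were 14.6 points (6.36 to 23.8) and −15.4 points (−22.4 to −6.83). Against the 128 remaining pairs with a gap over 250 kb (38.3% facing, 11.7% pointing away) both intervals included 0, at −8.62 points (−20.1 to 3.23) and 4.38 points (−4.33 to 13.3). Pairs that share a peak are not independent.

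Isolated peaks were present on all 19 autosomes. They numbered 10 on Chromosome 19 to 39 on Chromosome 4, and their share of the peaks of a chromosome ran from 1.16% on Chromosome 11 (0.728% to 1.86%) to 4.97% on Chromosome 12 (3.61% to 6.81%). Chromosome 11 had the densest peaks, at 12.3 per Mb of known sequence, and Chromosome 12 had 6.19 per Mb.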

How the data were processed

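CTCF ChIP-seq of 1 LSK library was read from its deposited peak list (mm10). Fold enrichment, as deposited, is a linear ratio. The deposited −log10 p-value was used as listed. A false discovery rate (q-value) column deposited by the authors has no stated scale and was not used. Units were read from the list layout and the values, since the list has no header. The authors aligned reads with Bowtie (0.12.8 in the study's methods, 1.0.0 in the submitters' processing notes, which also list bcl2fastq), used Samtools 0.1.8, and took peaks with MACS 1.3.7.1, whose settings have no source here. Multiply mapping reads were allowed and reads on the mitochondrial and unplaced chromosomes removed.

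Gaps were measured between peak edges, and peaks at a chromosome end, which have a neighbor on 1 side only, were not members. The core CTCF motif (12 bases, both strands) was searched in the reference sequence of GRCm38, whose chromosome lengths match mm10. Genes, exons and TSSs were those of GENCODE M21, and soft-masking was that of the FASTA. Tools were Python 3.11.15, numpy 2.4.6, scipy 1.17.1, pandas 2.3.3, statsmodels 0.14.6 and matplotlib 3.10.9. The gap rule, motif search and intervals were checked on simulated data. Named genes were the host or nearest gene of the 10 isolated peaks with the highest fold, of the 10 with the longest shorter gap and of the 5 on either side of the limit, genes with at least 3 isolated peaks, and up to 4 genes per list by distance; other named genes are marked as chosen after their values were seen. Some items that this rule names are not reported here. The members and lists were chosen with earlier results of these data known. Alternatives were limits of 200 and 300 kb, the peaks at or above the median −log10 p-value, and other motif, repeat, TSS and distance settings.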

Additional observations from a re-analysis of the deposited data

How the results depend on the processing

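The number of isolated peaks was 764 at a limit of 200 kb and 399 at 300 kb, and between 527 and 541 with gaps between midpoints, chromosome ends counted or peaks beside unknown bases left out. With only the peaks at or above the median −log10 p-value as members and neighbors there were 794, of which 191 were isolated in the whole list. In that stronger set the share with the core was 37.0% (−5.06 points from the rest, interval without 0), the median distance to a protein-coding TSS was 52.0 kb, and cores numbered 6.76 per Mb. At 200 kb the share with the core was 32.3% (−3.47 points, interval just below 0) and cores numbered 5.06 per Mb. At the limit of 250 kb with 1 mismatch allowed, the share was 77.3% (−6.57 points, interval without 0). The difference in the share with the core had an interval that includes 0 with the exact core at limits of 250 and 300 kb or in the central 200 bp. The share mostly in repeats turned to above the remaining peaks at 300 kb (6.27%) and with more than 80% soft-masked (1.88%). Of 2148 genes of the lists, 55 counted within 50 kb and 498 without a distance limit, against 196. Over all autosomal protein-coding genes the shares were 1.19% and 6.73%, against 4.07%. The shares at a TSS and between genes kept their direction and side under all alternatives run. At 200 and 300 kb the median fold of isolated peaks was 9.14 and 8.81. At these limits 30.4% and 28.4% of their motif pairs faced each other. These checks were added after the data were seen and hold no values for the other peaks. The share of pairs pointing away was not recounted at these limits. No paired analysis was possible because a single library has a peak list. Peak strength sets which neighbors count, and depth is not in the list; weaker sites within the gaps were not tested.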
